A study of Mus musculus with 5 samples.

Results

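The conjugating enzymes described here are the glutathione, glucuronide and sulfate transferases of the mouse: the soluble glutathione transferases (Gst genes of the alpha, mu, pi, theta, omega, zeta and kappa classes), the membrane-bound Mgst genes, the UDP-glucuronosyltransferases (Ugt) and the cytosolic sulfotransferases (Sult). They were chosen by gene symbol alone, and 75 of the 78334 rows of the count table carried such a symbol. Of the 75, 23 were soluble glutathione transferases, 3 were membrane-bound, 22 were glucuronosyltransferases and 27 were sulfotransferases, and 7 of them are pseudogenes by their annotation.

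These families carry out the second phase of detoxification. Each joins a large, charged group to a lipid-soluble compound: glutathione, a tripeptide with a reactive thiol, glucuronic acid carried by UDP, or sulfate carried by the donor PAPS. The products dissolve in water and leave the cell through ABC transporters. Glutathione transferases also clear aldehydes formed from oxidised fat. Curcumin, the turmeric polyphenol given in this study, is known to be cleared mainly as glucuronide and sulfate conjugates and through reduction of its double bonds, most of it in gut and liver. In adipose tissue the best known member is Gsta4, which conjugates the lipid aldehyde 4-hydroxynonenal.

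The 5 libraries were made from RNA of visceral adipose tissue, all from male C57BL/6 mice. The control group (n = 1) ate standard chow and received vehicle. The diabetes group (n = 2) had been injected with streptozotocin, which kills insulin-producing cells, at 70 mg/kg on day 2 of life, ate a diet with 60% of its calories as fat from week 3 for 8 weeks, and received vehicle. The curcumin-treated group (n = 2) had the same injection and diet, and was gavaged with curcumin at 50 mg/kg each day for 28 days beginning at week 11 of age. The labels name no further allele or agent and give no age at collection. Since they do not state that the libraries within a group are separate animals, the p-values reflect only how these libraries vary, and that variation may be technical. No group fed the chow was given curcumin, and the injection and the diet came together, so their effects cannot be told apart.

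Total counts ran from 25378046 to 42422890 per library. Levels are given as CPM, counts scaled to the library total, and lists of 5 values run from the control over diabetes 1 and 2 to curcumin-treated 1 and 2. The smallest detectable level was set by depth: a count of 0 allows at most 3 counts, or 0.0707 to 0.118 CPM. The labelled tissue was checked against defining markers, and the libraries stood apart within their groups. The 14 adipocyte markers held 4.77% of counts in diabetes 2 and 0.526% in curcumin-treated 1, against 0.0199% to 0.0712% in control 1, diabetes 1 and curcumin-treated 2, and Pparg, Retn and Aqp7 were at 0 in diabetes 1. The 16 markers of epididymal epithelium, the lining of the duct beside which the epididymal fat pad lies, held 7.58% to 11.5% in those last 3 libraries, 0.604% in curcumin-treated 1 and 4.33e-05% in diabetes 2, where 11 of the 16 were at 0. In curcumin-treated 1 that share came mostly from Crisp1, at 5965 CPM, while the other 15 markers were at 0.180 to 21.8 CPM. Sperm and germ cell markers (8 genes) held 0.0166% to 0.0206% in the same 3 libraries, 0.000144% in curcumin-treated 1 and 9.85e-05% in diabetes 2. The 10 macrophage markers held 0.282% in diabetes 2, 0.0361% in curcumin-treated 1 and 0.0184% to 0.0210% in the other 3. The 10 smooth muscle markers held 5.10% in curcumin-treated 1 and 0.123% to 0.280% elsewhere. Hepatocyte markers were scarce, with 0.00305% in diabetes 2 and 9.25e-05% to 0.000403% elsewhere. The 8 endothelial markers held 0.0198%, 0.00778%, 0.0348%, 0.0197% and 0.0116%. The 6 mesothelial markers held 0.0212%, 0.0305%, 0.00155%, 0.0441% and 0.0305%. By most of these marker shares control 1, diabetes 1 and curcumin-treated 2 stood together, and diabetes 2 and curcumin-treated 1 each on its own. That division crosses the study's groups, and the endothelial shares did not follow it. Smooth muscle markers also followed the groups: for 9 of 10, both curcumin-treated libraries lay above both diabetes libraries (17.9% of all genes). For 9 of 10, both diabetes libraries lay below control 1 (34.5% of all genes).

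The promoters of 4 mu-class genes are shown first because these genes lie in a single cluster, Gstm1 a few genes away from the other 3, and differed in how their levels varied across the libraries. The order along chromosome 3 of the RefSeq annotation of GRCm38.p6, leaving out pseudogenes, is Gstm5, Gstm7, Gstm6, Gstm3, Gstm2, Gstm1, Gstm4. The windows are the 250 bases before an annotated start of each gene, the first in the table where it lists several (2 for Gstm7, 3 for Gstm6 and 2 for Gstm1), written on the gene's strand from 5′ to 3′, and capitals mark letters of any of 3 searched motifs. They lie at chr3:107895604-107895853 on the plus strand (Gstm5) and, on the minus strand, at chr3:107931818-107932067 (Gstm7), chr3:107953467-107953716 (Gstm6) and chr3:108017974-108018223 (Gstm1).
Gstm5: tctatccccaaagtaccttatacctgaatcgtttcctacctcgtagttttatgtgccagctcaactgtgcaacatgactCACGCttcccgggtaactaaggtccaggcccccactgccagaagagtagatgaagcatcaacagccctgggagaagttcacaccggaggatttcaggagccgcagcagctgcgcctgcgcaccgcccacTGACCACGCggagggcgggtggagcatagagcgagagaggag
Gstm7: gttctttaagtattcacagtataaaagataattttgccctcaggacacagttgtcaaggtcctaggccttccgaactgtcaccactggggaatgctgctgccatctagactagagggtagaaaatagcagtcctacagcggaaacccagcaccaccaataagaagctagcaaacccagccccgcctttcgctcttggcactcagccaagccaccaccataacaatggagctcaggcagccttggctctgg
Gstm6: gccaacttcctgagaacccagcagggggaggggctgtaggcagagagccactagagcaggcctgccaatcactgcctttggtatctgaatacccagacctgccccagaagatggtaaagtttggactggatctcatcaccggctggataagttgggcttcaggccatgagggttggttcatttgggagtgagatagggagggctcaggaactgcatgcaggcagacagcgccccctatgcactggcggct
Gstm1: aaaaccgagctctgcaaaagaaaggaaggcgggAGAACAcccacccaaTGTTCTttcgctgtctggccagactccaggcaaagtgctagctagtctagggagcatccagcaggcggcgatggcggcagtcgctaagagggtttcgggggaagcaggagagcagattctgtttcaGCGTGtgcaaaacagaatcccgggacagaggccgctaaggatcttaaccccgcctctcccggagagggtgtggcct

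The motifs were searched on both strands: TGACNNNGC, the core of the antioxidant response element bound by NRF2, GCGTG, the core of the element bound by the aryl hydrocarbon receptor, and AGAACA, a core bound by androgen and glucocorticoid receptors. Gstm5 held the letters of the first once, from -42 to -34 relative to the start, and of the second on the opposite strand from -171 to -167 and from -38 to -34, the latter within the first. Gstm1 held the second motif from -76 to -72, and the third from -217 to -212 and, on the opposite strand, from -202 to -197. The windows shown for Gstm6 and Gstm7 held none of the 3, and other starts are not counted here. Of 27025 genes with a window, 10.1% held TGACNNNGC, 28.2% GCGTG and 16.2% AGAACA. Among the 60 members matched to this table the numbers were 3 (Gsta3, Gstm5 and Mgst1), 10 and 11. These matches describe letters only and say nothing of binding.

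Soluble glutathione transferases made up most of the reads of the conjugating enzymes in every library. Their summed level was 2823 CPM in the control library, 2516 and 1805 CPM in diabetes 1 and 2, and 1858 and 2110 CPM in curcumin-treated 1 and 2. The membrane-bound Mgst genes summed to 229, 163, 702, 154 and 235 CPM in the same order, and the sulfotransferases to 162, 113, 138, 130 and 156 CPM. Glucuronosyltransferases were scarce, at 3.59, 3.10, 39.0, 3.92 and 2.05 CPM. The Mgst and Ugt sums were thus highest in diabetes 2, while the Sult sum stayed between 113 and 162 CPM. Diabetes 2 was also the library with the largest shares of adipocyte, macrophage and hepatocyte marker reads. In bulk tissue, fewer cells of a type and less RNA per cell cannot be told apart, and the part of the tissue markers in these levels was not tested.

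**Figure D1:**
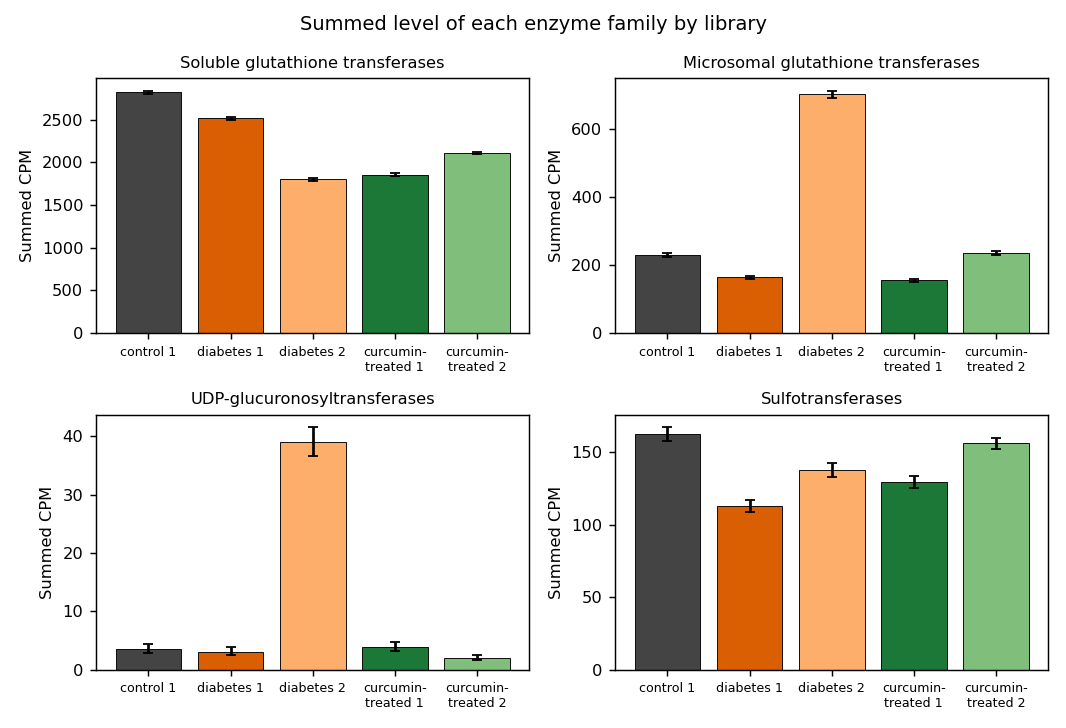
Summed CPM of the 4 enzyme families, 1 panel each, with a bar for each of the 5 libraries coloured by group and whiskers for the exact 95% interval, which covers counting error only. The glucuronosyltransferases reach 39.0 CPM in diabetes 2 and at most 3.92 CPM in the other 4 libraries.

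Of the 75 members, 27 reached 10 CPM in at least 1 library (18 soluble and 3 membrane-bound glutathione transferases, 2 Ugt and 4 Sult), 11 peaked between 1 and 10 CPM and 37 stayed under 1 CPM throughout. Of these 37, 12 had no read in any library, 4 Ugt and 8 Sult. Between 33 members (diabetes 1) and 56 (curcumin-treated 1) had a read, and these 2 libraries also had the fewest and most genes with 1 to 5 counts over the whole table, 1292 and 19751.

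**Figure D2:**
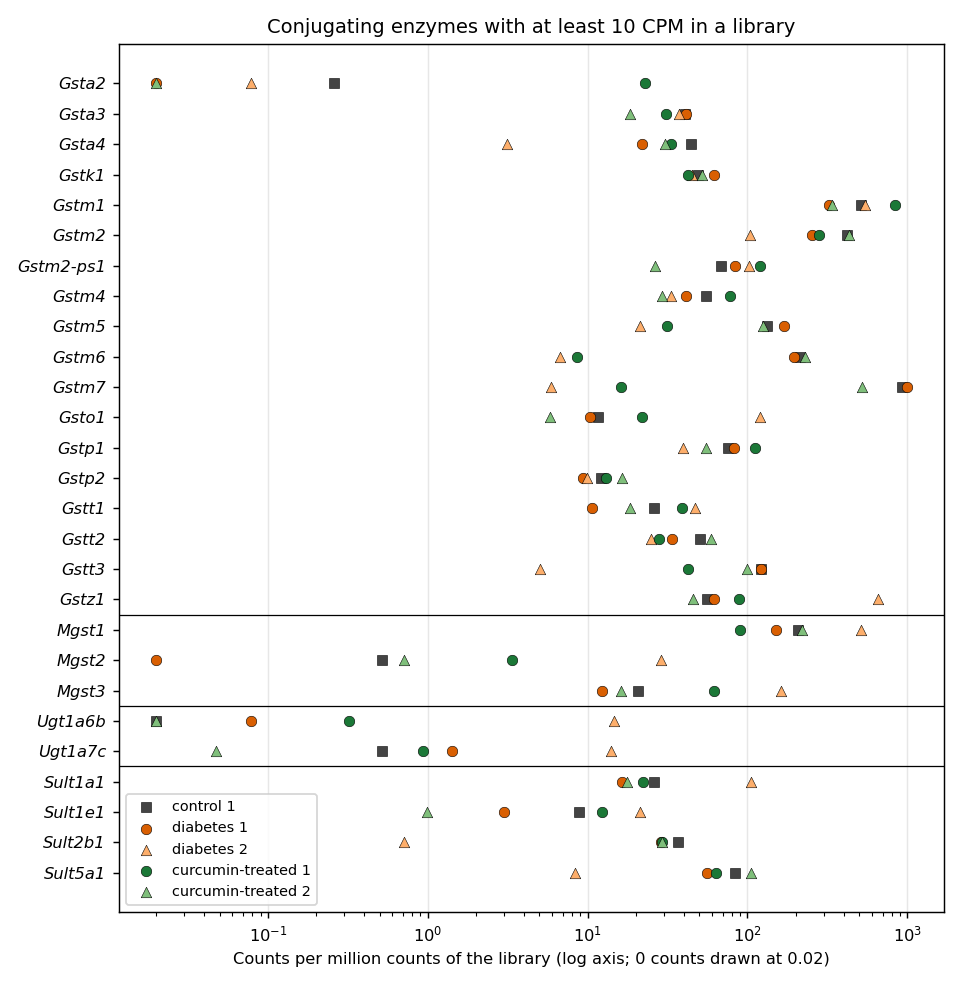
Level of each member that reached 10 CPM in a library, on a log axis of CPM, with 1 symbol per library and libraries with 0 counts drawn at the left edge. Gstm7, Gstm6 and Gstt3 are spread widely and Gstk1 and Gstp2 narrowly.

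Among the mu class, whose enzymes conjugate epoxides and other electrophiles, Gstm7 (ENSMUSG00000004035) was read at 931 CPM in the control, 993 and 5.87 CPM in diabetes 1 and 2, and 16.1 and 523 CPM in curcumin-treated 1 and 2. Its neighbour Gstm6 (ENSMUSG00000068762) was at 213, 195, 6.74, 8.52 and 229 CPM, and Gstm5 (ENSMUSG00000004032), known as a mu enzyme of testis and brain, at 132, 170, 21.2, 31.4 and 125 CPM. All 3 were high in the libraries with the most epididymal and sperm marker reads and low in diabetes 2 and curcumin-treated 1, so that diabetes and curcumin libraries overlapped. The highest level exceeded the lowest 169-fold for Gstm7 and 8.00-fold for Gstm5, with Gstm6 between them.

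Gstm1 (ENSMUSG00000058135), the main mu enzyme of mouse liver, followed another order, at 513, 323, 541, 841 and 339 CPM, a 2.60-fold range with overlapping groups. Gstm2 (ENSMUSG00000040562) stood at 417 CPM in control 1, at 252 and 103 in diabetes and at 281 and 434 in the curcumin-treated libraries. Gstm4 was at 55.0, 41.5, 33.0, 77.6 and 29.2 CPM, Gstm3 at no more than 2.40 CPM, and the processed pseudogene Gstm2-ps1 at 68.3, 83.1, 103, 120 and 26.5 CPM. The ratio of Gstm7 to Gstm1 counts was 1.82, 3.07, 0.0109, 0.0191 and 1.54, so the balance of the pair differed between libraries of the same group. Per kilobase of exon, Gstm7 had the highest level of all members in control 1 (582 CPM per kb), diabetes 1 (620) and curcumin-treated 2 (326), and Gstm1 in diabetes 2 (367) and curcumin-treated 1 (571).

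**Figure D3:**
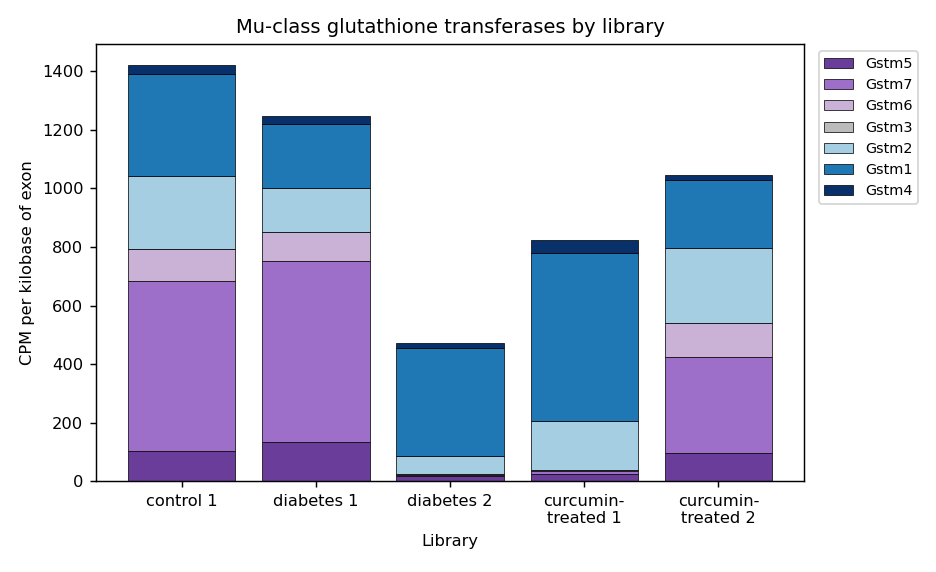
Levels of the 7 mu-class genes in each library, stacked, in CPM per kilobase of exon. Gstm7 fills much of the bar in control 1, diabetes 1 and curcumin-treated 2 and is hardly visible in curcumin-treated 1 and, at 3.67 CPM per kb, in diabetes 2.

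In the theta class, which acts on small halogenated compounds and peroxides, Gstt3 (ENSMUSG00000001665) shared the pattern of Gstm7, at 121, 122, 5.04, 42.6 and 99.0 CPM. Its neighbour Gstt1 was at 26.2, 10.6, 47.2, 39.0 and 18.3 CPM, so that the ratio of Gstt3 to Gstt1 counts ran from 11.5 in diabetes 1 to 0.107 in diabetes 2. Gstt2 was at 50.8, 33.6, 24.9, 28.2 and 59.2 CPM. As in the mu cluster, adjacent genes thus had different orders of libraries.

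Of the alpha class, Gsta4 was at 44.1, 21.9, 3.11, 33.3 and 30.5 CPM, lowest in the library with the most adipocyte reads. Gsta3, which also takes part in steroid isomerisation, was at 40.6, 41.2, 37.2, 30.8 and 18.4 CPM, and both curcumin-treated values lay below both diabetes values. Gsta2 had 634 counts (22.8 CPM) in curcumin-treated 1 and 7, 0, 2 and 0 in control 1, diabetes 1, diabetes 2 and curcumin-treated 2, so its level is that of a single library. Gsta1 stayed at or below 0.83 CPM.

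The pi enzyme Gstp1, an abundant detoxifying enzyme of many epithelia, was at 75.0, 82.7, 39.3, 112 and 55.0 CPM and its copy Gstp2 at 12.1, 9.39, 9.89, 13.1 and 16.5 CPM. Kappa-class Gstk1, an enzyme of mitochondria and peroxisomes, was among the steadiest members, at 49.2, 61.4, 45.2, 42.3 and 51.7 CPM, a 1.45-fold range. The groups overlapped for Gstp1 and Gstk1, and Gstp2 spanned a 1.76-fold range.

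The zeta enzyme Gstz1 (ENSMUSG00000021033), which isomerises maleylacetoacetate in tyrosine breakdown, was at 55.9, 62.0, 654, 88.0 and 45.5 CPM. Omega-class Gsto1, a thiol transferase, was at 11.7, 10.3, 120, 21.8 and 5.78 CPM. Both peaked in diabetes 2, followed by curcumin-treated 1, which were also first and second in the adipocyte and in the macrophage marker share.

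All 3 membrane-bound enzymes also peaked in diabetes 2. Mgst1 (ENSMUSG00000008540), a transferase and peroxidase of the endoplasmic reticulum and outer mitochondrial membrane, was at 208, 151, 511, 89.4 and 218 CPM. Mgst3 (ENSMUSG00000026688) was at 20.7, 12.4, 162, 61.7 and 16.2 CPM, and Mgst2, which can form leukotriene C4, at 0.518, 0, 28.6, 3.34 and 0.707 CPM. In diabetes 2, Mgst1 (254 CPM per kb), Mgst3 (148) and Gstz1 (129) were, after Gstm1, the protein-coding members with the highest level per kilobase, and the pseudogene Gstm2-ps1 (156) lay between Mgst1 and Mgst3. Curcumin-treated 1, second in adipocyte markers, was second for Mgst2 and Mgst3 and lowest for Mgst1.

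Glucuronosyltransferases had 97, 79, 990, 109 and 87 counts in all, with diabetes 2 highest. Ugt1a6b (ENSMUSG00000090145) had 0, 2, 371, 9 and 0 counts and Ugt1a7c (ENSMUSG00000090124) 14, 36, 357, 26 and 2. These are products of the Ugt1a locus, which joins alternative first exons to common later ones and whose enzymes take phenols such as curcumin. Ugt1a6a was at 1.41, 1.61, 2.48, 0.719 and 0.424 CPM. Ugt3a2, an enzyme that uses other UDP sugars, had 0, 0, 159, 16 and 10 counts, and its relative Ugt3a1 had 41, 0, 1, 2 and 44, so that diabetes 2, highest for the former, had a single count of the latter. The 10 Ugt2 genes, the main glucuronidating enzymes of liver, summed to 0, 0, 21, 19 and 3 counts, and Ugt8a, which makes the galactolipid of myelin, to 0, 0, 6, 13 and 0.

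Among the sulfotransferases, the phenol-conjugating Sult1a1 (ENSMUSG00000030711) was at 26.1, 16.5, 106, 22.3 and 17.7 CPM and the oestrogen sulfotransferase Sult1e1 (ENSMUSG00000029272) at 8.77, 2.99, 21.1, 12.3 and 0.990 CPM, both highest in diabetes 2. Sult5a1 (ENSMUSG00000000739) was at 83.9, 55.9, 8.35, 63.6 and 106 CPM and the cholesterol sulfotransferase Sult2b1 (ENSMUSG00000003271) at 36.6, 28.8, 0.709, 29.3 and 29.1 CPM, both lowest there. The narrow range of the family sum thus held opposite movements. Sult1c2 was at 4.29, 5.07, 0, 0.395 and 1.11 CPM and Sult1d1, which sulfates catecholamines, at 1.89, 0.747, 0.0394, 0.036 and 0.306 CPM. The bile acid and steroid sulfotransferases of the Sult2a group, liver enzymes, were near 0 throughout. Sult2a5 had 0, 0, 0, 3 and 16 counts.

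Across the 41 members that passed the low-count filter of the fit, 15 had their highest level in diabetes 2, against 22% of all 29855 genes tested. The members with their highest level in control 1, diabetes 1, curcumin-treated 1 and curcumin-treated 2 numbered 4, 8, 8 and 6, against 18.6%, 22.9%, 21.2% and 15.3% of all genes. The lowest level fell in diabetes 2 for 11 members (30.2% of all genes), and in control 1, diabetes 1, curcumin-treated 1 and curcumin-treated 2 for 5, 10, 5 and 10 (18.6%, 26.6%, 8.68% and 15.9%). The 34 members that did not pass were too scarce to fit, so these counts do not describe the families as a whole.

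Curcumin-treated against diabetes libraries asks whether the daily gavage changed enzymes that clear curcumin. No member passed the threshold, an adjusted p under 0.05 in edgeR's quasi-likelihood test with Benjamini-Hochberg adjustment over all genes, and neither did any other gene (0% called, smallest adjusted p = 0.852). At an unadjusted p under 0.05, 0 of 41 members and 700 genes (2.34%) were counted, DESeq2 called 0 of 38 members and 105 genes (0.488%), and limma-voom called none of either. Fitted fold changes were positive for 18 members (51.7% of all genes) and negative for 23 (48.1%), with a median log2 fold change of -0.16 for members and 0.05 for all genes. With 2 libraries against 2, an exact permutation test of a single gene cannot go below p = 0.333.

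Both curcumin-treated libraries lay above both diabetes libraries for 9 members, against 17.9% of all genes: Gstm2, Gstp2, Gsta4, Gsta1, Gsto2, Sult5a1, Sult2b1, Sult2a5 and Ugt3a1. They lay below for 5, against 9.72%: Gsta3, Gstm3, Ugt1a7c, Ugt1a6a and Sult4a1. Of the 9, Gsta1 had 3 counts in curcumin-treated 2, and Sult2a5 had 3 and Ugt3a1 had 2 in curcumin-treated 1. These lie at or under the floor of 3 counts, where a separation of libraries is not measurable. Of the 10 smooth muscle markers, 9 also lay above in both curcumin-treated libraries. At an unadjusted p under 0.05 in edgeR's test 7 of the 10 were counted (2.34% of all genes), and none was called. The part of that tissue in the levels of these members was not tested. Gstm2 stood at 178 ± 105 CPM (SD, n = 2) in diabetes and 357 ± 108 (SD, n = 2) with curcumin, a log2 fold change of 1.07 (SE 0.66, edgeR adjusted p = 0.852). Sult5a1 stood at 32.1 ± 33.6 and 84.7 ± 29.8 CPM (SD, n = 2 each), a log2 fold change of 1.49 (SE 0.91, edgeR adjusted p = 0.852). Sult2b1 stood at 14.7 ± 19.8 and 29.2 ± 0.117 CPM (SD, n = 2 each). Its log2 fold change of 1.08 (SE 1.41, edgeR adjusted p = 0.907) came to 0.12 without diabetes 2 and 5.25 without diabetes 1.

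Ugt1a7c had a log2 fold change of -4.17 (SE 1.91) and Ugt1a6a of -1.89 (SE 1.08), each with an edgeR adjusted p of 0.852. Ugt1a6a stood at 2.05 ± 0.616 CPM in diabetes and 0.572 ± 0.208 with curcumin (SD, n = 2 each). Without diabetes 2 the value of Ugt1a7c was -1.54 and that of Ugt1a6a -1.42. Ugt3a1 rests on 1 count in diabetes and 46 with curcumin, a ratio of 33.3 with an exact 95% interval of 5.68 to 1343 that covers counting error only, and 44 of the 46 came from curcumin-treated 2. Sult2a5, at 0 in diabetes, had 3 counts in curcumin-treated 1 and 16 in curcumin-treated 2. Its mean level with curcumin was 4.11-fold the floor of 3 counts over the diabetes group. That value leaves out the counting error of these few counts.

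For the members that divided the libraries by tissue markers, the average hides libraries that moved apart. Gstm7 had a log2 fold change of -0.70 (SE 2.23, edgeR adjusted p = 0.970), which became 5.51 without diabetes 1 and -4.99 without curcumin-treated 2. Gstm6 (0.42, SE 1.83) became 4.13 and -3.60 in the same way. Gstz1 (-2.55, SE 1.19, edgeR adjusted p = 0.852) became 0.17 without diabetes 2, and Mgst3 (-1.32, SE 1.27, edgeR adjusted p = 0.870) became 1.68. Gstm1 gave 0.37 (SE 0.72, edgeR adjusted p = 0.941). The other members named for the highest mean levels of their family ran from -5.74 for Ugt1a6b (SE 2.84, edgeR adjusted p = 0.852) to 0.29 for Gstt3. Between them lay -3.09 for Ugt3a2, -1.70 for Sult1a1, -1.13 for Mgst1, -1.03 for Sult1e1, -0.43 for Gstm2-ps1 and -0.15 for Gstm5, and none was called. Ugt1a6b had 371 counts in diabetes 2 and at most 9 in any other library, and Ugt3a2 had 159 and at most 16.

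**Figure D4:**
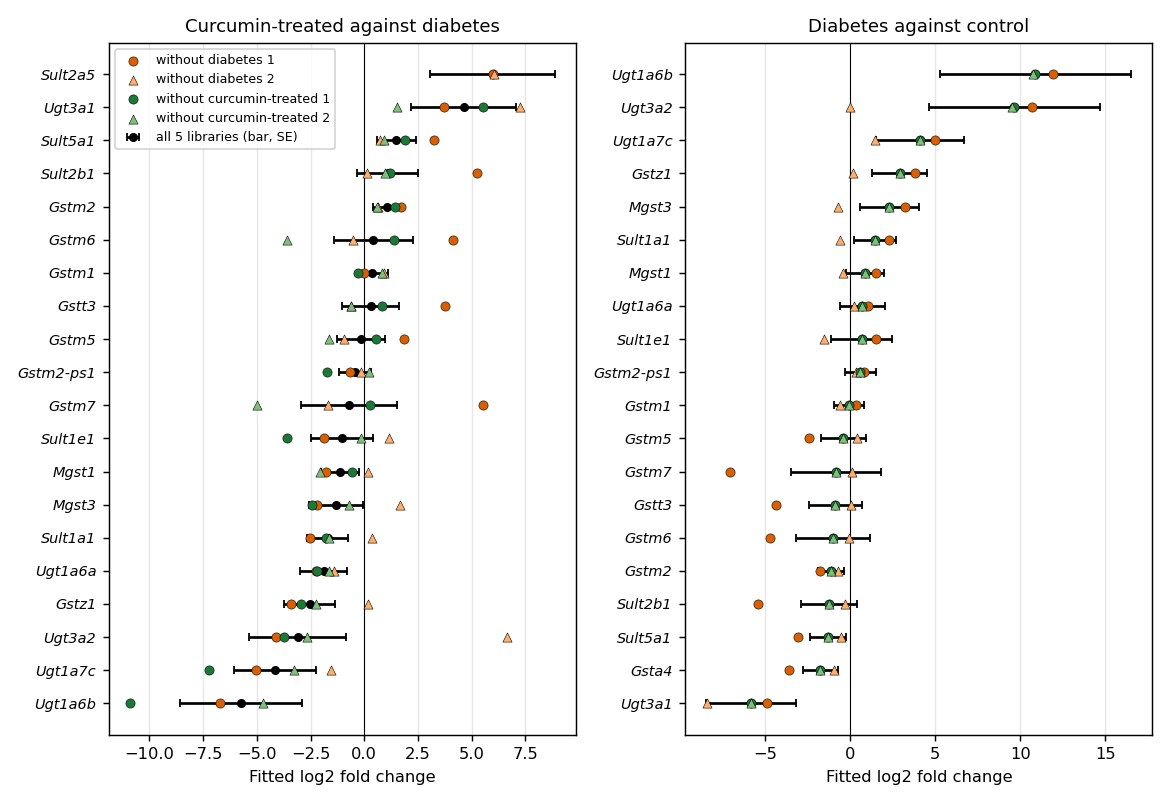
Fitted log2 fold changes of the named members for curcumin-treated against diabetes (left) and diabetes against control (right). Black points and bars give the fit of all 5 libraries with its SE, coloured symbols the value with 1 library left out, and any position against a group at 0 counts, as for Sult2a5 (left), Ugt1a6b and Ugt3a2 (right) and some values of Ugt3a1, Ugt3a2 and Ugt1a6b with a library left out, depends on the prior count and is no measured fold. The bars of Gstm7 (SE 2.23 for curcumin-treated against diabetes) are far wider than those of Gstm2 (SE 0.66).

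By family, 13 soluble glutathione transferases had a positive and 10 a negative fold change (median 0.37), against 0 and 3 of the Mgst genes (median -1.32), 2 and 4 of the Ugt genes (median -2.49) and 3 and 6 of the Sult genes (median -1.03). No member of any family was called, and the median over all genes was 0.05. The directions of the Mgst genes depended on diabetes 2: without it Mgst1 gave 0.17 and Mgst3 1.68. Of the Ugt genes, Ugt1a7c (-1.54) and Ugt1a6a (-1.42) stayed negative without that library.

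Diabetes against the control library asks how the injection and diet together related to these enzymes. No gene was called (0%), with a smallest adjusted p of 1 in edgeR's quasi-likelihood test with Benjamini-Hochberg adjustment. At an unadjusted p under 0.05 there were 0 members and 441 genes (1.48%), and DESeq2 called 0 of 38 members and 54 genes (0.202%). Both diabetes libraries lay above the control for 6 members (17.3% of all genes): Ugt1a7c, Ugt1a6b, Ugt1a6a, Gstm2-ps1, Gstz1 and Sult4a1. They lay below for 12 (34.5%), among them Gstm2, Gstm4, Gstm6, Gsta4, Gstt2, Sult5a1 and Sult2b1. Ugt1a6b had 2 counts in diabetes 1 against 0 in the control, a difference under the floor of 3 counts. Fitted fold changes were positive for 21 members (52.4%) and negative for 19 (45.2%), with medians of 0.09 for members and 0.07 for all genes.

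Ugt1a6b, at 0 in the control, was at least 66.2-fold higher in diabetes against a floor of 3 counts, and Ugt3a2 at least 28.2-fold, but all but 2 counts of the former and all 159 of the latter came from diabetes 2. Gstz1 had a log2 fold change of 2.91 (SE 1.61, edgeR adjusted p = 1), which was 0.19 without diabetes 2. Gsta4 gave -1.75 (SE 1.03, edgeR adjusted p = 1), and -0.97 without that library. Gstm2 gave -1.13 (SE 0.78) and Sult5a1 -1.31 (SE 1.06), both lowest in diabetes 2 as well. Ugt3a1 had 41 counts in the control and 1 in diabetes, a ratio of 77.1 (exact 95% interval 13.1 to 3119, counting error only).

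Curcumin-treated libraries against the control again gave no call (0%, 0 of 41 members). At an unadjusted p under 0.05 there were 0 members and 113 genes (0.378%), and DESeq2 called 0 of 49 members and 77 genes (0.201%). Both libraries lay above the control for 5 members (24.6% of all genes), which were Mgst2, Sult2a5, Gsta1, Ugt3a2 and Gstp2, and below for 15 (34%). Sult2a5 in curcumin-treated 1 and Gsta1 in curcumin-treated 2 each had 3 counts, which is the floor. Fold changes were positive for 19 members (57.3%) and negative for 22 (41.9%). The median was -0.04 for members and 0.17 for all genes, and scaling by library totals moved the latter to 0.03. Gsta3 gave a log2 fold change of -0.61 (SE 0.55) and Sult1d1 of -3.17 (SE 2.09), each with an edgeR adjusted p of 1. The comparisons with the control use the same single library, and the 2 comparisons with diabetes the same diabetes libraries, so their values are not independent.

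The genes that supply the donors and remove the products were read from lists. For curcumin-treated against diabetes no gene of these lists was called. Of 20 genes of glutathione synthesis and turnover, 5 had a positive and 15 a negative fold change (median -0.38). Ggt1, which splits extracellular glutathione, was at 241, 420, 0.197, 8.41 and 264 CPM, high in the same 3 libraries as Gstm7. Gclm, the modifier subunit of the enzyme that starts glutathione synthesis, was at 172, 146, 43.2, 77.3 and 126 CPM, with the same 3 libraries highest. Other genes of the list ran the other way. Anpep was at 10.3, 8.33, 122, 20.5 and 7.64 CPM and Dpep1 at 20.5, 13.2, 152, 44.7 and 16.3 CPM. Ggt5, Gpx1 and Gpx4 were also highest in diabetes 2.

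Of 8 genes that make or use UDP-glucuronic acid, 4 were positive and 4 negative (median -0.14). Ugdh, which makes the donor, was at 21.8, 22.7, 61.2, 18.9 and 19.7 CPM, and the lysosomal beta-glucuronidase Gusb, which removes glucuronide, at 40.9, 60.4, 278, 51.7 and 28.3 CPM. Both peaked in diabetes 2 together with the Ugt1a genes. Gusb had a log2 fold change of -2.18 (SE 0.88) and Ugdh of -1.17 (SE 0.67), neither called.

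Of 13 tested genes of sulfate supply, 7 were positive and 6 negative (median 0.04). The PAPS synthases had opposite orders: Papss2 was at 6.33, 8.05, 50.6, 9.89 and 7.83 CPM and Papss1 at 143, 137, 44.3, 131 and 117 CPM, so diabetes 2 was highest for the former and lowest for the latter. Among 10 transporters that export conjugates, 3 were positive and 7 negative (median -0.62). Abcg2, which exports sulfate and glucuronide conjugates, was at 19.5, 8.84, 22.0, 1174 and 11.8 CPM, a peak in curcumin-treated 1 alone. That library also held most Gsta2 reads and by far the largest smooth muscle marker share, 5.10%. The part of tissue in this peak was not tested.

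Of 11 tested regulators of these genes, 3 were positive and 8 negative (median -0.55). Nfe2l2, which encodes NRF2, was at 56.0, 73.5, 86.0, 61.5 and 36.0 CPM, a log2 fold change of -0.75 (SE 0.47). Its inhibitor Keap1 was at 32.6, 29.5, 33.3, 57.2 and 46.3 CPM (0.70, SE 0.44), and the repressor Bach1 at 23.3, 21.7, 42.3, 12.0 and 11.6 CPM. Over the 11, both curcumin-treated libraries lay above both diabetes libraries for 2 (17.9% of all genes) and below for 2 (9.72%), and none was called. Of 12 reductases able to act on curcumin or like carbonyls, 6 were positive and 6 negative, and the carbonyl reductase Cbr1 stood at 103, 87.3, 42.1, 180 and 85.9 CPM, with overlapping groups.

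Sequence shared between genes limits some of these levels, since how reads matching several genes were counted is not given in the sources used here. Of the 27 members that reached 10 CPM, 17 shared under 1% of their 100-base transcript stretches with any other gene and 7 shared over 10%. Gstm7 and Gstm5 shared none, Gstm6 1.10% and Gstm1 5.86%, so few exact stretches of this length bear on the contrast within the mu cluster. Exact matches do not show how reads of similar genes were assigned. Ugt1a6b shared 70.9% and Ugt1a7c 51.6%, Gstp2 46.9% and Gstp1 25.1%, Gsta2 28.4%, Gstm2-ps1 12.9% and Gstt3 10.8%. Among the scarcer members, Ugt1a6a shared 50.4%, most of it with Ugt1a7c, Gsta1 80.6% and Sult2a5 16.6%. Their separate levels are uncertain to that degree.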

How the data were processed

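The authors deposited raw counts per Ensembl gene, not normalised, in 1 table of 5 libraries, per the file headers. Libraries were made with a stranded poly-A kit and read as pairs, per the labels' protocols. FastQC, featureCounts and the build GRCm39 are named in the submitters' processing notes. Neither the aligner nor the gene annotation's release nor the strandedness used in counting is given in the sources used here. Whether reads of overlapping antisense genes were counted apart is therefore not known. Symbols were found for 51486 of 78334 rows (65.7%).

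Levels are CPM of the library total. Intervals and floors cover counting error only. Genes were filtered with filterByExpr, which kept 29855, scaled by TMM and fitted together, all libraries in 1 model, by the quasi-likelihood test of edgeR 4.0.16 (robust, two-sided, 2 residual degrees of freedom, biological coefficient of variation 1.07) in R 4.3.3, with Benjamini-Hochberg adjustment over all genes and a threshold of 0.05. The lone control library borrows its spread from the diabetic groups. Each SE is the log2 fold change divided by the root of its F statistic. DESeq2 1.42.0 and limma 3.58.1 served as alternatives, beside other scalings, filters, a replicate block and fits without each library. The fit was tested on simulated data with a low and a high spread between libraries. That check does not turn the absence of calls in these data into evidence of no change.

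Levels in every library are given for members reaching 10 CPM in a library, with other members added after their values were seen. Fold changes were computed for the most abundant tested members of each family (8 soluble, 2 membrane-bound, 4 Ugt, 4 Sult) and, per comparison, the 2 non-overlapping members of smallest p in each direction. The members, lists and tests were chosen with earlier results of these data known. Exon lengths and shared 100-base stretches came from GENCODE M21 (GRCm38), promoters from RefSeq GRCm38.p6. Those coordinates are not of the build of the counts.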

Additional observations from a re-analysis of the deposited data

How the results depend on the processing

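No member was called in any setting run with edgeR, DESeq2 or limma-voom, including fits without each library. For all genes, DESeq2 called 105 for curcumin-treated against diabetes, 54 for diabetes against control and 77 for curcumin-treated against control, where edgeR and limma-voom called 0. The cause was not tested. The sign of named members was less steady: of 20 named for the first comparison 12 turned in at least 1 setting, of 20 for the second 8, and of 22 for the third 14. Depth limits the Ugt and scarce Sult members, most of which had few or no counts.

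Leaving out each library in turn gave these ranges of log2 fold change for the members that turned. For curcumin-treated against diabetes they were -0.28 to 0.92 for Gstm1, -4.99 to 5.51 for Gstm7, -3.43 to 0.17 for Gstz1, -3.60 to 4.13 for Gstm6, -1.66 to 1.84 for Gstm5, -1.73 to 0.23 for Gstm2-ps1, -0.64 to 3.75 for Gstt3, -2.08 to 0.17 for Mgst1, -2.42 to 1.68 for Mgst3, -4.09 to 6.64 for Ugt3a2, -2.52 to 0.36 for Sult1a1 and -3.58 to 1.15 for Sult1e1. The 6.64 of Ugt3a2 comes from the fit without diabetes 2, where the diabetes group has 0 counts, so it is set by the prior count and is no measured fold. For diabetes against control they were -0.62 to 0.32 for Gstm1, -7.07 to 0.13 for Gstm7, -2.40 to 0.40 for Gstm5, -4.34 to 0.049 for Gstt3, -0.42 to 1.54 for Mgst1, -0.70 to 3.20 for Mgst3, -0.62 to 2.26 for Sult1a1 and -1.51 to 1.51 for Sult1e1. For curcumin-treated against control they were -0.36 to 0.73 for Gstm1, -0.56 to 0.29 for Gstm2, -0.057 to 0.67 for Gstz1, -4.63 to 0.34 for Gstm6, -2.06 to 0.16 for Gstm5, -1.13 to 0.83 for Gstm2-ps1, -1.20 to 0.31 for Mgst1, -0.12 to 1.59 for Mgst3, -3.12 to 0.86 for Ugt1a7c, -0.39 to 0.57 for Sult5a1 and -2.90 to 0.51 for Sult1e1.

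With limma-voom the first comparison gave 0.27 for Gstm7, 0.061 for Gstm5 and 0.18 for Ugt3a2, the second -0.061 for Sult1e1 and the third -0.17 for Gstm2-ps1. Without the low-count filter Ugt1a7c gave 0.0019 in the third. The labels do not say that replicate numbers pair libraries, and over genes same-numbered libraries tended to deviate in opposite directions (correlation -0.358). With the replicate number as a block, edgeR called 0 genes, and at an unadjusted p under 0.05 counted 217, 47 and 75. The block turned Gstm7 (0.25) and Gstm5 (0.052) in the first comparison, Mgst1 (-0.29) in the second, and Gstm2 (0.019), Gstz1 (-0.022), Gstt3 (0.61) and Sult2b1 (1.54) in the third. Crossed pairs, chosen after seeing the data, also gave 0 calls, and gave 0.24 for Gstm7 and 0.052 for Gstm5 in the first comparison, 0.26 for Gstm5, -0.046 for Mgst3 and -1.61 for Sult1e1 in the second, and -0.31 for Gstm1, 0.36 for Gstm2, -0.60 for Gstz1, 0.27 for Gstm6, 0.32 for Gstm5, -0.71 for Gstm2-ps1, 0.86 for Gstt3, -0.56 for Mgst3, -1.33 for Ugt1a6b and 1.47 for Sult2b1 in the third.

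A family sum was listed as moved if it left the counting interval in control 1, or changed by more than the SD of its group elsewhere. Scaled by TMM, these were the soluble glutathione transferases, at 2612 CPM in control 1 and 2308 in curcumin-treated 2. In control 1 the Mgst genes moved to 212 and the sulfotransferases to 150.3 CPM. Without the member with the most counts (Gstm1, Mgst1 and Sult5a1), the soluble glutathione transferases summed to 2310.2 CPM in control 1, 1264 in diabetes 2, and 1017 and 1771 in curcumin-treated 1 and 2. The Mgst genes then summed to 21.2, 191, 65.0 and 16.9 CPM in the same libraries, and the sulfotransferases to 78.5 in control 1, 57.2 in diabetes 1, and 66.0 and 50.4 in curcumin-treated 1 and 2. Sums not listed as moved also changed. Without Mgst1 the Mgst genes summed to 12.4 CPM in diabetes 1, and without Ugt1a7c the Ugt genes to 24.9 CPM in diabetes 2.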
